A study of Mus musculus with 10 samples.

Results

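The Tudor domain genes of the germ line were examined in fetal mouse oocytes of E16.5: Tdrd1, Tdrd3, Tdrd5, Tdrd6, Tdrd7, Tdrd9, Tdrd12, Tdrkh, Rnf17 and Stk31. The members were taken by gene name, and all 10 were found among the 55536 genes of the deposited tables. All 10 also passed the filter on low counts, which left 19244 genes for testing. RNA was sequenced from 5 Taf4b-deficient and 5 Taf4b-heterozygous libraries of oocytes from fetal ovaries, collected on 3 litter dates, so the group set against the mutant carries a mutant Taf4b allele as well. TAF4b, found mainly in gonads, belongs to TFIID, the complex that places RNA polymerase II at core promoters. The animals are labelled C57BL/6, and their parents were homozygous for an Oct4-EGFP transgene (B6;129S4-Pou5f1tm2Jae/J), whose green fluorescence was used to sort germ cells after dead cells were discarded. Nothing in the labels says that the 5 libraries of a genotype come from separate embryos, so the p-values measure the spread between libraries, part of which may be technical.

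Tudor domains are folds that bind methylated arginine or lysine in other proteins. In germ cells, many Tudor domain proteins bind the methylated arginines of PIWI proteins, the Argonaute relatives that carry piRNAs, the small RNAs that silence transposons. Together they build the granules called nuage in fetal germ cells and the chromatoid body in spermatids. Their functions in mice are known mostly from the testis, where loss of several members leaves transposons active or arrests sperm formation.

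Total counts ran from 16707216 to 23680023 in deficient and from 18174863 to 26983565 in heterozygous libraries. The germ cell genes Ddx4 (an RNA helicase) and Dazl (a translation regulator) lay at 388 to 661 and 1224 to 2294 CPM (counts scaled to library size) in deficient libraries, and at 571 to 874.5 and 1595 to 2734 CPM in heterozygous libraries. The transcript of Pou5f1, the gene also called Oct4, did not exceed 1.16 CPM in any library. The other genes listed as germ cell markers were Tex101, Dppa3 and Dnd1. In deficient libraries they were at 965 to 1831, 8.80 to 24.9 and 0.797 to 2.90 CPM. In heterozygous libraries they were at 869 to 2673, 1.86 to 114 and 1.43 to 10.8 CPM. Taf4b was at 58.2 to 81.7 CPM in deficient libraries and at 271, 290, 142, 65.7 and 101.0 CPM in heterozygous libraries 1 to 5. The library labelled heterozygous 4 thus lay within the deficient range on this scale, although in TPM, which is also scaled for gene length, its 19.6 TPM stood just above the highest deficient value of 18.6 TPM. Of the non-germ cell lists, red blood cell markers had the widest range. Their 9 genes summed to 1606 CPM in deficient 5, to 719 CPM in the library labelled heterozygous 4 and to 2084 CPM in heterozygous 5, and no other library exceeded 222 CPM.

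The members lie on 9 chromosomes in GRCm38, each as 1 gene with the same start and end in the deposited table and in GENCODE M21. Tdrd1 (ENSMUSG00000025081) spans chromosome 19 from 56826209 to 56870012 on the plus strand, with up to 26 exons in a transcript. Tdrd9 (ENSMUSG00000054003) spans chromosome 12 from 111971559 to 112068854 on the plus strand, with up to 36 exons. Rnf17 and Tdrd3 share chromosome 14 but lie apart. Other annotated genes overlap 6 members besides Tdrd9, which overlaps only Rd3l at a mean of 0.5 counts. The largest of these overlaps were Gm42463 and Oaz3 within or against Tdrkh, with mean counts of 373 and 239. The strand setting of the counting is not given in the sources used here. Overlaps were taken from gene spans and not from exons. Whether reads of Tdrkh and Oaz3 can be told apart was therefore not tested.

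Upstream sequences are shown for the pair with the largest genotype differences, Tdrd9 and Tdrd1, and for Stk31, the member with the highest level, because these were the members whose promoters held the letters CACGTG. Each is the 250 bases before the start of transcription, from RefSeq on GRCm38.p6, written 5′ to 3′, and capitals mark every match to a searched motif. Positions are those of the leftmost base of a match, with -1 as the last base before the start.
Tdrd9 (chr12:111971309-111971558, plus strand): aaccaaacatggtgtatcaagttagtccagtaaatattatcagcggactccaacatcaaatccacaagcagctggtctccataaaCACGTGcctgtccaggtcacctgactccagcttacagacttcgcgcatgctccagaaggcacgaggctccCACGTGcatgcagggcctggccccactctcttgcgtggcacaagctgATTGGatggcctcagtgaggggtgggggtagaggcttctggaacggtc
Tdrd1 (chr19:56825959-56826208, plus strand): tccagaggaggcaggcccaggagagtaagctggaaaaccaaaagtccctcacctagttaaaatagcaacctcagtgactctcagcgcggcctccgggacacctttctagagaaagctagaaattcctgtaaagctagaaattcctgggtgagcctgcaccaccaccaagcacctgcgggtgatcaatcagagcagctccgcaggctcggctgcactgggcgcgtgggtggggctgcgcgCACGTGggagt
Stk31 (chr6:49395354-49395603, plus strand): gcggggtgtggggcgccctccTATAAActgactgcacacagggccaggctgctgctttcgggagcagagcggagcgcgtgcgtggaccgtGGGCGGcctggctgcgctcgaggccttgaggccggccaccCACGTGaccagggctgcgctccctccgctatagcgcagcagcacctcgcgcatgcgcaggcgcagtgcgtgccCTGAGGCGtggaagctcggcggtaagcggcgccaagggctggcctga
The motifs were searched on both strands in the 8 members that matched the promoter table by symbol. They were CACGTG, the E-box of MYC, MAX and USF factors, GCGGGA, bound by E2F factors, CCAAT, bound by NFY, GGGCGG, bound by SP factors, the TATA box TATAAA, and CNCCTCAG, the motif described for STRA8. CACGTG was found in 3 of the 8 members, against 6.02% of all 32851 promoters in the table. Tdrd9 held it at both -165 and -95 from the start, Tdrd1 at -11 and Stk31 at -120. CCAAT was found in Tdrd9 and, with 5 matches, in Tdrkh, against 33.8% of all promoters. TATAAA was found in Tdrd7 and Stk31 (12.4% of all promoters), with the Tdrd7 matches at -31 and -29 overlapping each other, and CNCCTCAG in the same pair (6.42%). GGGCGG was found in 4 members (32.7%) and GCGGGA in Tdrd3 and Tdrd5 (16.9%), and in Tdrd3 a match of each shares bases with the other. A match shows that these letters are present and not that a factor binds.

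The promoters differed in CpG content. The observed number of CpG over that expected from base composition was 1.14 in Tdrd5, 0.921 in Tdrkh, 0.918 in Tdrd3 and 0.827 in Stk31. It was 0.531 in Tdrd1, 0.427 in Tdrd9, 0.240 in Tdrd12 and 0.219 in Tdrd7, beside a median of 0.373 over all promoters. Tdrd9 and Tdrd1, the pair with the largest genotype differences, lay between these extremes.

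The members covered a wide range of levels in E16.5 oocytes, compared here per length in TPM over all 10 libraries. Stk31, a protein with a Tudor domain and a kinase-like domain, was highest at 382 ± 88.7 TPM (SD, n = 10) and stood above every value of the other members. Rnf17, a RING finger protein needed in mice for sperm formation, followed at 128 ± 20.5 TPM. Tdrd7, a component of germ cell granules that is also required in the lens, was at 76.9 ± 21.6 TPM, and Tdrkh, which sits on mitochondria and helps trim piRNA ends, at 68.3 ± 12.4 TPM. Rnf17, Tdrd7 and Tdrkh overlapped with their neighbours in this order. These 4 genes ranked between the 91.1 and 98.4 percentiles of mean TPM among the genes tested.

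The remaining members were lower. Tdrd9 averaged 20.01 ± 24.9 TPM, Tdrd1 12.3 ± 9.86 TPM, Tdrd5 10.7 ± 4.08 TPM, Tdrd12 8.86 ± 3.67 TPM and Tdrd3 6.12 ± 1.80 TPM (SD, n = 10). Each of these overlapped with its neighbour here, and Tdrkh with Tdrd9. Tdrd6, which organises the chromatoid body of spermatids, was close to absent at 0.135 ± 0.0634 TPM, with 6 to 25 counts per library. Its counts are so few that a difference as large as that between its lowest and highest library rests on fewer than 20 reads.

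**Figure D1:**
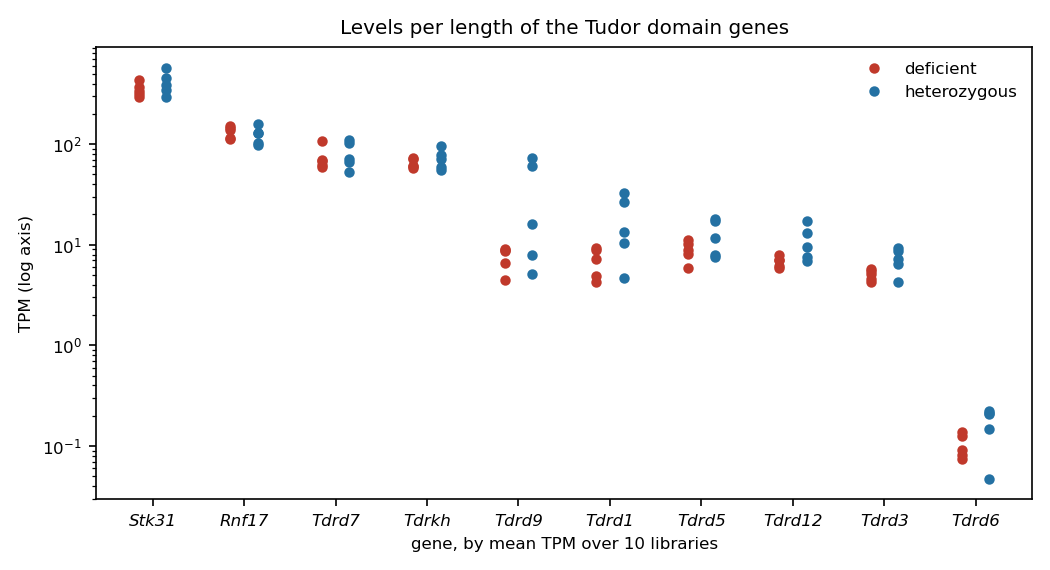
TPM of each Tudor domain gene in every library on a log axis, with genes ordered by mean TPM over 10 libraries, deficient libraries left and heterozygous libraries right within each gene. Stk31 stands highest at 292 to 578 TPM, Tdrd6 lowest at 0.0474 to 0.225 TPM, and the heterozygous points of Tdrd9 spread from 5.10 to 72.1 TPM.

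The comparison of genotypes asks which of these transcripts depend on Taf4b. No member passed the threshold of an adjusted p under 0.05 (edgeR, Benjamini-Hochberg adjustment), nor did any of the 19244 genes (0.0%), of which 3190 (16.6%) had an unadjusted p under 0.05. DESeq2 on the same counts called 679 genes. Of the 10 members, 9 had a negative log2 fold change of deficient over heterozygous libraries, as had 51.1% of all genes tested, and Rnf17 had a positive one. The median was -0.37 over the members and -0.02 over all genes tested. A similar median of -0.38 was found for the genes listed as germ cell markers. Of those 6 genes 5 were tested, with 5 negative and 0 positive, so in this fit the shift was not particular to the members. In a fit without heterozygous 1 the median was -0.46 over the members and -0.22 over the germ cell markers. Of these 6 markers, all tested there, 4 were negative and 2 positive, so the likeness depended on the fit. An unadjusted p under 0.05 was reached by 3 members, Tdrd9, Tdrd1 and Tdrd12, all lower in deficient libraries, beside 9.13% of all genes tested in that direction. In all 10 members the values of the genotypes overlapped, and in 3.53% of all genes tested they did not. In bulk RNA of sorted cells, fewer cells that express a gene and less of its RNA per cell cannot be told apart.

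The largest difference was in Tdrd9, an RNA helicase with a Tudor domain that acts with the PIWI protein MIWI2 against transposons in fetal male germ cells of mice. Tdrd9 was at 39.4, 30.7, 42.4, 21.98 and 35.2 CPM in deficient libraries 1 to 5, against 24.9, 66.9, 38.9, 215 and 272 CPM in heterozygous libraries 1 to 5. The deficient libraries lay close together, while the library labelled heterozygous 4 and heterozygous 5 stood far above all others, and heterozygous 1 and 3 fell within the deficient range. By edgeR this gave a log2 fold change of -1.86 ± 0.55 (SE; adjusted p = 0.161).

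Tdrd1, a scaffold of nuage that binds the PIWI protein MILI, followed the same order of libraries at its upper end. It was at 32.7, 22.7, 45.4, 21.4 and 34.3 CPM in deficient libraries 1 to 5, against 22.8, 56.5, 51.0, 94.7 and 125.5 CPM in heterozygous libraries 1 to 5. Heterozygous 1 lay within the deficient range and the other 4 heterozygous libraries above it. By edgeR this gave a log2 fold change of -1.16 ± 0.38 (SE; adjusted p = 0.181).

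Both values depended on which heterozygous libraries were included. Without heterozygous 1, Tdrd1 and Tdrd9 fell by 1.38 and 2.12 on the log2 scale in deficient libraries, each with an edgeR adjusted p of 0.0395. That fit called 3.07% of 19766 genes, and 1.65% as lower. DESeq2, which called 3.35% of the genes to which it gave an adjusted p and 2.15% as lower, called Tdrd9 (-1.88, adjusted p = 0.0231) and no other member. Without the library labelled heterozygous 4, heterozygous 5 and deficient 5, the 3 libraries highest for the alpha-globin gene Hba-a1, the log2 fold change was -0.37 ± 0.32 (SE) for Tdrd9 and -0.51 ± 0.34 for Tdrd1, with 4 deficient and 3 heterozygous libraries. With those 3 libraries as a term in the edgeR model instead, the values were -0.94 and -0.81 and no member was called, beside 1.25% of all genes tested. Both of these fits were added after the data were seen. In deficient 5, where the erythroid sum was 1606 CPM, Tdrd9 and Tdrd1 were at 35.2 and 34.3 CPM, within the range of the other deficient libraries. This is a single library, and the part of red blood cell RNA in the difference was not tested.

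By litter date, from 1 or 2 libraries per genotype, the difference of mean log2 CPM for Tdrd9 was -0.05, -1.34 and -3.29 in date order. For Tdrd1 it was -0.13, -1.11 and -2.21. The first date holds neither the library labelled heterozygous 4, which is of the second date, nor heterozygous 5, the only heterozygous library of the third. With litter date in the model the log2 fold changes were -1.76 for Tdrd9 and -1.17 for Tdrd1.

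**Figure D2:**
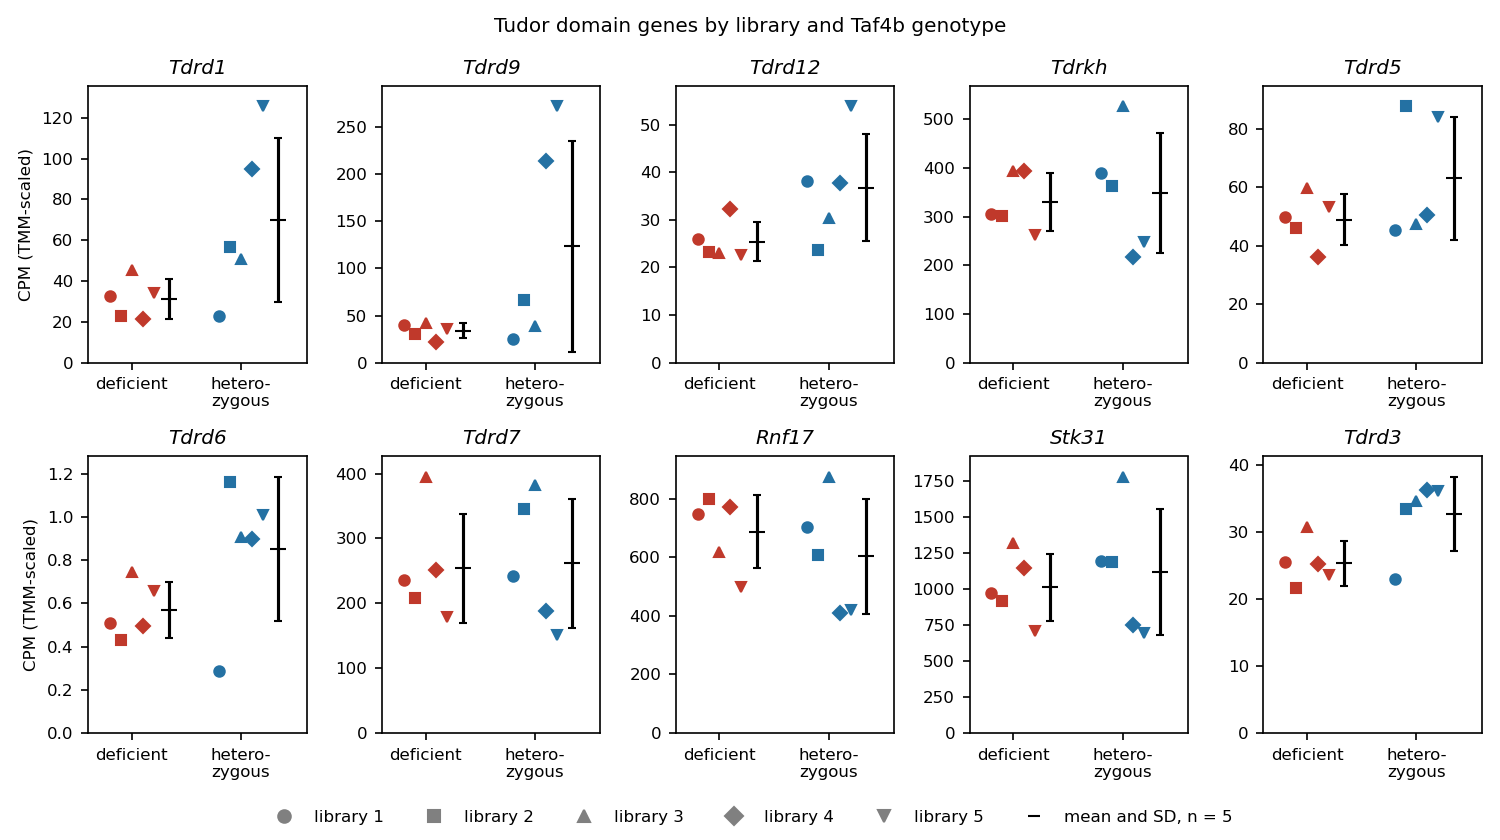
CPM of each Tudor domain gene in the 5 deficient (left, red) and 5 heterozygous (right, blue) libraries, with marker shapes for library numbers and bars for mean and SD (n = 5). The library labelled heterozygous 4 and heterozygous 5 stand highest for Tdrd9 at 215 and 272 CPM and for Tdrd1 at 94.7 and 125.5 CPM, and low for Rnf17 at 409 and 419 CPM.

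Tdrd12, a helicase-like protein required in mice for piRNAs bound by MIWI2, was at 26.0, 23.3, 23.0, 32.3 and 22.6 CPM in deficient libraries 1 to 5, against 38.3, 23.7, 30.5, 37.7 and 53.9 CPM in heterozygous libraries 1 to 5. Of the heterozygous libraries, 3 lay above every deficient library, and heterozygous 1, which was low for Tdrd1 and Tdrd9, was among them. By edgeR this gave a log2 fold change of -0.53 ± 0.22 (SE; adjusted p = 0.262), which was -0.24 ± 0.23 without the 3 libraries highest for Hba-a1. Within litter dates the difference of mean log2 CPM was -0.21, -0.55 and -0.99.

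Tdrkh, the mitochondrial partner of PIWI proteins, showed no such difference. It averaged 331 ± 59.5 CPM in deficient and 349 ± 123 CPM in heterozygous libraries (SD, n = 5 each), a log2 fold change of -0.08 ± 0.25 (SE). The library labelled heterozygous 4 and heterozygous 5 were its lowest libraries, at 217 and 249 CPM, and heterozygous 3 its highest at 526 CPM. Its p of 0.763 does not show that the genotypes are alike.

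The members known chiefly from the chromatoid body and from sperm formation were not called either, as was none of the 19244 genes tested (0.0%). Tdrd5, needed in mice for transposon silencing and sperm formation, was at 36.0 to 59.5 CPM in deficient libraries with a median of 49.6 CPM, and at 45.4, 87.5, 47.5, 50.4 and 84.0 CPM in heterozygous libraries 1 to 5. It was high in heterozygous 2 and 5 and within the deficient range in the other 3. The log2 fold change was -0.37 ± 0.23 (SE), and -0.33 ± 0.26 without the 3 libraries highest for Hba-a1. Tdrd6 was at 0.429 to 0.745 CPM in deficient libraries and at 0.288 to 1.16 CPM in heterozygous libraries (log2 fold change -0.58 ± 0.40, SE), with 4 heterozygous libraries above and 1 below all deficient libraries.

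Tdrd7 averaged 254 ± 83.6 CPM in deficient and 262 ± 99.5 CPM in heterozygous libraries (SD, n = 5 each). Its highest library of all was deficient 3 at 395 CPM and its lowest heterozygous 5 at 151 CPM, and the log2 fold change of -0.04 ± 0.29 (SE) turned in sign with the library left out. Rnf17 averaged 688 ± 126 CPM in deficient and 603 ± 197 CPM in heterozygous libraries, a log2 fold change of 0.19 ± 0.25 (SE). The library labelled heterozygous 4 and heterozygous 5 were lowest of all for Rnf17, at 409 and 419 CPM, while heterozygous 3 was highest at 874.5 CPM. Leaving out both of those low libraries, chosen after the data were seen, turned the log2 fold change of Rnf17 to -0.08.

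Stk31, with the highest level of the members, averaged 1012 ± 232.5 CPM in deficient and 1122 ± 438 CPM in heterozygous libraries (SD, n = 5 each). Its log2 fold change was -0.15 ± 0.28 (SE), and 3 heterozygous libraries lay within the deficient range of 707 to 1320 CPM. Heterozygous 3 stood highest at 1780 CPM. It was also the library with the most total counts, to which CPM is scaled. Its TMM scaling factor of 0.858 was the lowest of all libraries, and a low factor raises CPM. The part of scaling in this level was not tested.

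Tdrd3, the member that is expressed in most tissues, binds methylated histones and works with the topoisomerase TOP3B on RNA and DNA. It was at 25.6, 21.7, 30.8, 25.2 and 23.6 CPM in deficient libraries 1 to 5, against 23.1, 33.6, 34.7, 36.3 and 36.1 CPM in heterozygous libraries 1 to 5. Heterozygous 1 lay within the deficient range, and the other 4 heterozygous libraries were above it within a narrow span. By edgeR this gave a log2 fold change of -0.37 ± 0.18 (SE; adjusted p = 0.331), which was -0.24 ± 0.23 without the 3 libraries highest for Hba-a1. Within litter dates the difference of mean log2 CPM for Tdrd3 was -0.12, -0.46 and -0.56 in date order.

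**Figure D3:**
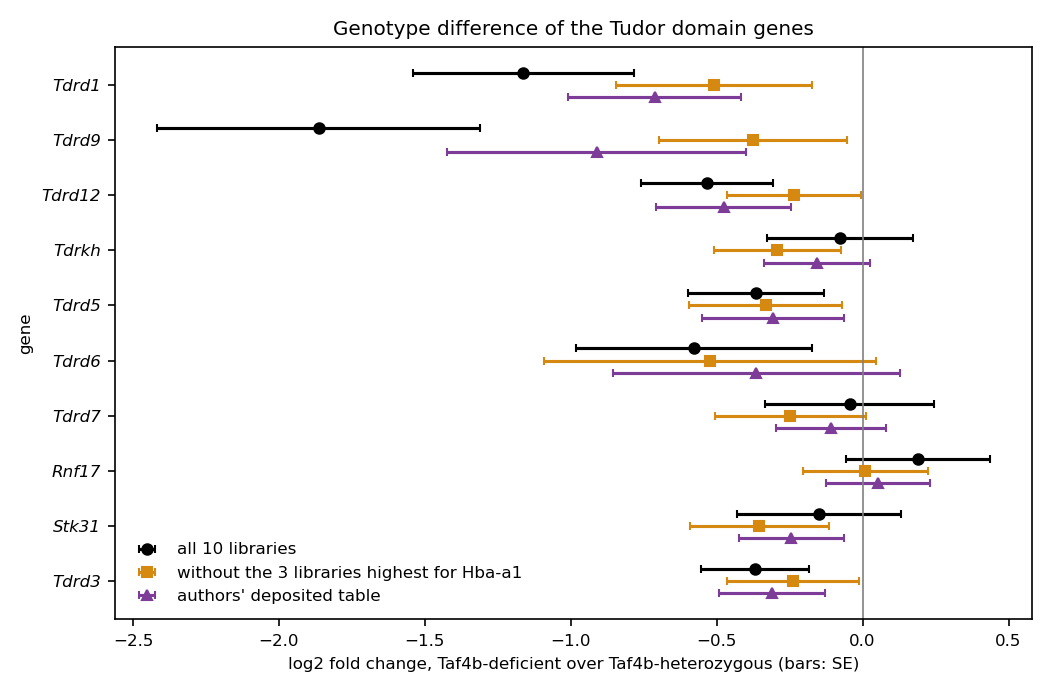
Log2 fold change of deficient over heterozygous libraries for each Tudor domain gene, with SE bars, from edgeR with all 10 libraries (black circles), from edgeR without the 3 libraries highest for Hba-a1 (orange squares) and from the authors' deposited table (purple triangles). Tdrd9 is at -1.86, -0.37 and -0.91 and Tdrd1 at -1.16, -0.51 and -0.71 in these fits, while Rnf17 is at 0.19, 0.01 and 0.05.

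In the authors' deposited table of genotype differences no member had an adjusted p under 0.05, beside 6.55% of the genes with an adjusted p there. The log2 fold change in the authors' deposited table was -0.71 ± 0.30 (SE) for Tdrd1, with a p of 0.0164 and an adjusted p of 0.127. It and Tdrd12 were the members with an unadjusted p under 0.05 in the authors' deposited table, beside 6.95% of genes there as lower in deficient oocytes. For Tdrd9 the authors' deposited table gives -0.91 ± 0.51 and for Tdrd12 -0.48 ± 0.23, with adjusted p of 0.288 and 0.206. DESeq2 run here on genotype alone gave -1.88 for Tdrd9 (adjusted p = 0.0231) and -0.55 for Tdrd12 (adjusted p = 0.187). The deposited fit is thus not the same as that one, and the cause of the difference was not tested. The other members lay between -0.36 for Tdrd6 and 0.05 for Rnf17 in the authors' deposited table.

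The library labelled heterozygous 4 and heterozygous 5 were above the other 8 libraries for Tdrd9, Tdrd1 and Tdrd3, beside 14.5% of all genes tested, and below them for Rnf17 and Tdrkh, beside 15.8%. Tdrd9 was 2.04 and 2.38 above its mean log2 CPM in these libraries, whereas Rnf17 was at -0.61 and -0.58 and Stk31 at -0.45 and -0.56. Of 12 genes listed as markers of meiotic stage, 4 (Sohlh1, Nobox, Lhx8 and Figla) were above the other 8 libraries in the same pair, 4 (Stra8, Rec8, Dmc1 and Meioc) below them, and 4 (Sycp1, Sycp3, Spo11 and Msh4) neither. Stra8, a gene of meiotic entry, lay at 56.3 and 10.3 CPM there, against 156 to 965 CPM elsewhere, and Nobox, an oocyte transcription factor, at 84.8 and 166 CPM, against 3.48 to 16.9 CPM elsewhere. The part of meiotic stage or of red blood cell RNA in the levels of the Tudor domain genes was not tested.

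**Figure D4:**
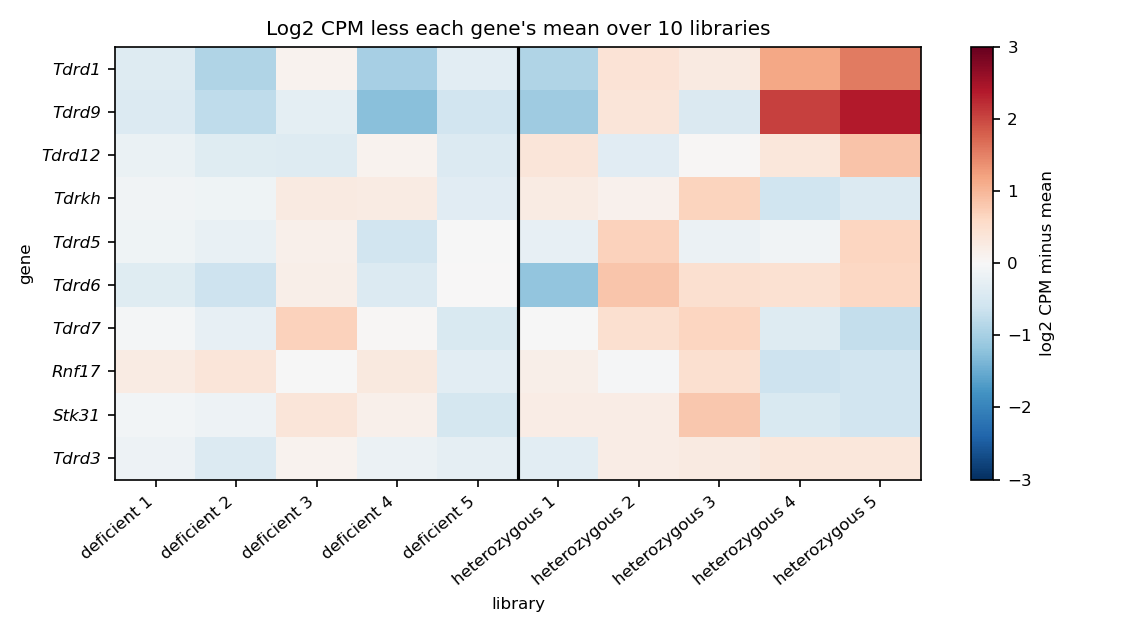
Log2 CPM of each Tudor domain gene less its mean over the 10 libraries, deficient libraries left and heterozygous libraries right of the line, red above and blue below the mean. The library labelled heterozygous 4 and heterozygous 5 are 2.04 and 2.38 above the mean for Tdrd9 and 0.61 and 0.58 below it for Rnf17.

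Each member spread more among heterozygous than among deficient libraries, as did 75.0% of all genes tested. For Tdrd9 the range of log2 CPM was 0.94 in deficient and 3.45 in heterozygous libraries, wider than in 95.6% of genes tested within heterozygous libraries. For Tdrd1 it was 1.09 in deficient and 2.46 in heterozygous libraries. Tdrd3 varied least, with ranges of 0.50 in deficient and 0.65 in heterozygous libraries.

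Markers of other non-germ cells were detected in both genotypes. The 10 genes of pregranulosa cells summed to 36.4 to 104.5 CPM in deficient and 37.1 to 96.4 CPM in heterozygous libraries, the 7 of ovarian stroma to 13.9 to 93.3 and 13.8 to 61.6 CPM, and the 6 of endothelial cells to 12.7 to 60.7 and 15.4 to 96.9 CPM. The 7 macrophage genes summed to 43.1 to 129 CPM in deficient and 89.9 to 171 CPM in heterozygous libraries, and the 5 of the surface epithelium to 7.79 to 32.6 and 15.4 to 33.8 CPM. None of these genes was at 0 in all libraries, and the macrophage sums reach or exceed the CPM of Tdrd1, Tdrd3 and Tdrd12 in most libraries. Per length the stroma genes summed to 122 to 236 TPM in deficient and 17.5 to 248 TPM in heterozygous libraries, mostly from Pdgfra, which is named here after its values were seen. Pdgfra averaged 175 TPM in deficient and 138 TPM in heterozygous libraries, but only 1.42 CPM in deficient and 0.989 CPM in heterozygous libraries. Of these lists, the endothelial sum was highest in heterozygous 5, the library highest for Tdrd9 and Tdrd1. Pecam1 alone gave 54.6 of the 96.9 CPM there. Pecam1 and Cldn5 were highest in heterozygous 5, but Cdh5, Kdr, Tek and Emcn in deficient 1. Deficient 1 had an endothelial sum of 60.7 CPM, with Tdrd9 at 39.4 and Tdrd1 at 32.7 CPM. The part of endothelial RNA in the levels of Tdrd9 and Tdrd1 was not tested.

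For each member, the genes with the most similar pattern were taken by Pearson's r of log2 CPM over the 10 libraries, among named genes whose mean log2 CPM reached 1 or more (13666 genes, or 13667 for Tdrd6). These are the best of many and share libraries and depth, so r only describes. The closest to Tdrd9 were Ndrg1 and Dgkh (r = 0.98 each, and 0.90 and 0.95 in the 7 libraries without high Hba-a1). The closest to Tdrd1 were AV320801 and Meak7 (r = 0.97 each). Rnf17 was closest to Ankrd31 (r = 0.99), a protein needed for meiotic DNA breaks, and Brca2 (r = 0.98), which loads recombinases on broken DNA. Stk31 was closest to Coro1c and Copb2 (r = 0.99 each), Tdrkh to Ap3m1 and Ttc23 (0.99 and 0.98), and Tdrd7 to Tmx4 and Anln (0.99 each). Tdrd12 was closest to Akr1b3 and Vkorc1 (0.97 each), Tdrd3 to Fam210a and Tmem231 (0.97 and 0.96), Tdrd6 to Eml1 and Ttc17 (0.95 and 0.94) and Tdrd5 to 1700066M21Rik and Tsr1 (0.94 and 0.90).

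Genes of the PIWI and piRNA pathway, the partners of the Tudor proteins, were counted beside the members. Of 20 genes listed, 18 were tested and none was called (0.0% of all genes tested), 16 had a negative log2 fold change and 2 a positive one, and the median was -0.39. Over all genes tested, 51.1% had a negative one. An unadjusted p under 0.05 was reached by 7 as lower and 1 as higher in deficient libraries, beside 16.6% of all genes tested in either direction. DESeq2 called 1 as lower, beside 2.15% of the genes to which it gave an adjusted p. Mybl1, a transcription factor that drives piRNA genes in mouse spermatocytes, was at 45.4 ± 9.20 CPM in deficient and 26.0 ± 7.62 CPM in heterozygous libraries (SD, n = 5 each; log2 fold change 0.81 ± 0.23, SE). Piwil4, which encodes MIWI2, was at 4.83, 2.70, 5.31, 5.37 and 1.67 CPM in deficient libraries 1 to 5 and at 7.91, 4.32, 8.91, 13.2 and 14.5 CPM in heterozygous libraries 1 to 5. Its highest libraries were the same as those of Tdrd9, and the log2 fold change was -1.29 ± 0.39 (SE). Asz1, a mitochondrial protein of nuage, averaged 169 ± 21.2 CPM in deficient and 279 ± 102 CPM in heterozygous libraries (log2 fold change -0.72 ± 0.24, SE). The library labelled heterozygous 4 and heterozygous 5 were highest of all for Asz1, at 341 and 421 CPM. For Mybl1 they were lowest of all, at 16.75 and 20.2 CPM. The edgeR adjusted p was 0.155 for Mybl1, 0.162 for Piwil4 and 0.187 for Asz1.

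Tudor domain genes outside this group, mostly chromatin and splicing factors, showed no common direction. Of 20 listed, 19 were found and tested, none was called, 11 had a positive and 8 a negative log2 fold change, and the median was 0.06. Over all genes tested, 51.1% had a negative one. An unadjusted p under 0.05 was reached by 1 of them, beside 16.6% of all genes tested. DESeq2 called 0, beside 3.35% of the genes to which it gave an adjusted p. Arid4a, a chromatin protein, had the smallest p of them and was at 15.2 ± 2.57 CPM in deficient and 22.3 ± 4.11 CPM in heterozygous libraries (SD, n = 5 each; log2 fold change -0.55 ± 0.21, SE). Phf20l1, a reader of methylated lysine, had a log2 fold change of 0.45 ± 0.26 and Smndc1, a splicing factor, one of 0.33 ± 0.19 (SE). Of 8 genes of protein arginine methyltransferases and their cofactor Wdr77, which can make the marks Tudor domains bind, none was called by edgeR (1 with an unadjusted p under 0.05) or by DESeq2, and the median was -0.24. Of 9 genes of TDRD3 partners and RNA granules, edgeR called none (2 higher and 2 lower in deficient libraries at an unadjusted p under 0.05), DESeq2 called 1 as lower, and the median was 0.25. The shares over all genes given above, 16.6% and 3.35%, stand beside these counts as well, and edgeR called 0.0% of all genes.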

How the data were processed

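RNA sequencing of sorted E16.5 oocytes gave 10 libraries, grouped by the genotype in the labels. The authors deposited whole-number counts per gene from featureCounts (Subread 1.6.2) after Trim Galore 0.5.0 and HISAT2 2.1.0 on GRCm38. The deposited TPM come with StringTie 1.3.3b named in the submitters' processing notes, as are the tools above. How strand and multiple alignments were handled is not stated there. The authors' deposited table of genotype differences from DESeq2 holds, per the file headers, a log2 fold change with its SE, raw and adjusted p-values, a Wald score and a mean normalized signal over libraries. The sign of Taf4b there shows that deficient is on top.

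Counts were tested on genotype alone with edgeR 4.0.16 (R 4.3.3), by the quasi-likelihood test with TMM scaling and edgeR's expression filter, and p-values were adjusted by Benjamini-Hochberg over all 19244 genes tested. CPM uses the TMM-scaled library sizes. Each SE was derived as |log2 fold change| over the root of the F statistic. The test was checked on simulated counts with 200 changed genes, the same dispersion for every gene and no further differences between libraries of a genotype. That check therefore does not cover libraries that differ as the heterozygous ones do here. Alternatives used limma 3.58.1 and DESeq2 1.42.0, other scalings, filters and covariates, and left out libraries or litter dates. The rule for named genes takes all members, Taf4b, the 2 genes most like each member, and from the piRNA and other Tudor lists the called genes or otherwise the 3 with the smallest p. The members and lists were chosen with earlier results of these data known. Genes without a symbol took 0.0632% to 0.0945% of counts.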

Additional observations from a re-analysis of the deposited data

Results flagged for a closer look

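Heterozygous 1 stood apart from the other heterozygous libraries for Tdrd3 and Tdrd6. For Tdrd3 it was at 23.1 CPM and the other heterozygous libraries at 33.6 to 36.3 CPM, and the gap to the nearest was 0.825 of the whole range of log2 CPM. For Tdrd6 it was at 0.288 CPM and the others at 0.899 to 1.16 CPM, with a gap of 0.803 of the range, from 6 counts in heterozygous 1. The limit for 5 libraries is 0.71, and chance passes it in about 1 in 20 groups. The Tudor domain genes gave 20 groups, and 2 were marked.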

How the results depend on the processing

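Of 259 log2 fold changes of the members under alternatives, 243 kept their direction and stayed uncalled, 4 became called and 12 turned in sign. Tdrd1, Tdrd3, Tdrd5, Tdrd6, Tdrd9 and Tdrd12 were negative in all of their alternatives that gave a value, Tdrd9 from -2.41 to -0.36 and Tdrd1 from -1.53 to -0.47. The call of no member became a call of 1 (Tdrd9) without a filter on low counts and by DESeq2, and ran from 0 to 2 with single libraries left out, the 2 being Tdrd1 and Tdrd9 without heterozygous 1. Over all genes 0 were called, against 251 without a filter, 679 by DESeq2, 510 by limma voom with quality weights and 241 with the libraries highest for Hba-a1 as a term (added after the data were seen). With single libraries left out, 0 to 606 were called, the 606 without heterozygous 1. The cause was not tested. Signs turned for Tdrd7 with litter date in the model (0.0899) and without the first litter date (0.1111), for Tdrkh without that date (0.0344) and by limma voom (0.0892), for Stk31 by limma voom (0.0216), and for Rnf17 without heterozygous 5 and the library labelled heterozygous 4 (-0.083). With single libraries left out, values ran from -0.26 to 0.12 for Tdrd7, -0.21 to 0.11 for Tdrkh and -0.28 to 0.073 for Stk31.

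Replicate numbers are not stated to mark pairs, and deviations of same-numbered libraries correlated from -0.26 to 0.59, not all above 0.1. With the replicate block, 1 gene was called over all genes and 0 members, and Tdrd9 was at -1.31. Tdrd6, at 6 to 25 counts, is limited by depth, and the filter of 1 CPM in 5 libraries removed it.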
